A study of Homo sapiens with 15 samples.

Results

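The 8 genes described here encode enzymes that make arginine, proline, cysteine and alanine or that feed their carbon skeletons: ASS1, ASL, ALDH18A1, PYCR1, CTH, CBS, GPT2 and PCK2. They were taken by symbol from the gene counts of 15 RNA sequencing libraries, where they were 8 of 62703 genes in the HEK293T table and 7 of 35595 genes in the HuCCT1 table. CBS was not analysed in HuCCT1. The 8 were selected on measured values, namely their log2 fold changes between labelled knockouts and Ctrl in these same libraries. Those differences are therefore given as a description, with intervals and without p-values.

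The libraries were made from total RNA of 2 established human lines after ribosomal RNA had been removed. HEK293T is a human embryonic kidney line that expresses a large T antigen of viral origin, and HuCCT1 derives from cholangiocarcinoma, a cancer of the bile duct. The 5 groups hold 3 libraries each: SNRPD2KO, PUS7KO and Ctrl in HEK293T, and SNRPD2KO and Ctrl in HuCCT1. The knockouts were made with CRISPR-Cas9, per the series' design text, and were meant to remove PUS7, an enzyme that converts uridine in RNA to pseudouridine, or SNRPD2, which encodes the SMD2 protein of the Sm ring of spliceosomal RNAs. HEK293T was grown in DMEM and HuCCT1 in RPMI-1640, so line and medium cannot be told apart. Whether a labelled knockout is a single clone or a pool, and what Ctrl cells received, are not given in the sources used here. Nothing in the labels says that replicates came from separate cultures, so the spread between them may be technical.

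Cells make arginine from citrulline in a pair of steps that belong to the urea cycle, proline from glutamate by way of a cyclic intermediate, and cysteine from homocysteine and serine by transsulfuration. Outside the liver these routes supply amino acids when uptake falls short, and loss of ASS1 is known to make some tumours depend on arginine from outside the cell. Several of the 8 genes, among them PYCR1, CTH, PCK2 and ALDH18A1, are known targets of ATF4, the transcription factor of the integrated stress response, which binds sites of the form TGATGNAA.

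On build hg38, as the tables give it, ASS1 lies on chromosome 9 (130444961 to 130501274, plus strand), ASL on chromosome 7 (66075800 to 66094697, plus strand) and ALDH18A1 on chromosome 10 (95605941 to 95656711, minus strand). PYCR1 lies on chromosome 17 (81932384 to 81942412, minus strand), CTH on chromosome 1 (70411218 to 70439851, plus strand) and CBS on chromosome 21 (43053191 to 43076943, minus strand). GPT2 lies on chromosome 16 (46884362 to 46931289, plus strand) and PCK2 on chromosome 14 (24094053 to 24110598, plus strand). The genes are thus spread over 8 chromosomes. How reads in overlapping genes were assigned is not given in the sources used here, which leaves some levels uncertain. ASL overlaps ENSG00000249319, a gene of its own strand with 0 to 3 counts per library. PCK2 lies within the span of NRL, a gene of the other strand with 0 to 2 counts. PYCR1 overlaps MYADML2 of its own strand (0 to 9 counts) and ENSG00000235296 and ENSG00000263585 of the other strand (0 to 6 counts). CTH overlaps a Metazoa_SRP gene of its own strand with 0 to 7 counts. CBSL, a near-identical copy of CBS, was not analysed here, so the CBS counts are uncertain too.

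RefSeq promoters (build GRCh38.p14, 300 bases from 250 before to 50 after the start) were matched for 6 of the 8 genes in 9 windows; PYCR1 and GPT2 had no entry. Their GC content ran from 50.7% to 80.7%. The motif TGATGNAA, searched on both strands, was found in 0 of the 9 windows, against 3.62% of all 35116 promoters of that length. The palindrome TGACGTCA, the full cyclic AMP response element, was also found in 0 of 9, against 1.85%. With shares this low, most sets of 9 windows would hold neither motif, and these 9 belong to only 6 genes, so nothing is read from the comparison. These letters are absent from these windows only, and sites further away were not searched. The 170 bases before the RefSeq start are shown for ASS1 and CTH, the genes described next with high folds and tight replicates. They are also shown for ASNS, the asparagine synthetase gene, whose promoter does hold the motif. RefSeq starts can lie inside the gene spans given above, as for ASL, CTH, CBS and PCK2. The CTH window thus runs past the CTH start at 70411218. Most of the ASNS window lies inside the ASNS span, which ends at 97872542. Capitals mark TGATGNAA.
ASS1, chr9:130444791-130444960, plus strand: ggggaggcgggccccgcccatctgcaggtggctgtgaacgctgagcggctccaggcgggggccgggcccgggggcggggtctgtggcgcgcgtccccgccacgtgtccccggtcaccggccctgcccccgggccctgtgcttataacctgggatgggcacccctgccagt
CTH, chr1:70411098-70411267, plus strand: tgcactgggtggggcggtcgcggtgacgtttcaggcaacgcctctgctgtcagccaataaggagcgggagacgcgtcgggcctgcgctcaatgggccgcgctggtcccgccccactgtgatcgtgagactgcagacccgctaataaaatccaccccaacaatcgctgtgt
ASNS, chr7:97872409-97872578, minus strand: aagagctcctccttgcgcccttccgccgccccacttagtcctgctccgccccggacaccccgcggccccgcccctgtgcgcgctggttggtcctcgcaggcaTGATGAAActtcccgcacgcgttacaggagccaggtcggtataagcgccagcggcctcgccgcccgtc
The ASS1 window is 77.1% GC and the CTH window 62.9% GC, and the copy of the motif in ASNS starts 68 bases before the RefSeq start.

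Total counts ran from 7944276 to 11270267 per HEK293T library and from 13776166 to 16795618 per HuCCT1 library, and small noncoding RNAs took 28.2% to 35.7% of the counts in HEK293T and 2.02% to 3.97% in HuCCT1. Levels are given as CPM, a gene's count relative to the library's total after scaling by TMM factors within a line. In such bulk samples fewer cells of a type and less RNA per cell cannot be told apart. SNRPD2 RNA went against its label. It ran from 246 to 309 CPM in the HEK293T libraries labelled SNRPD2KO against 169 to 196 CPM in Ctrl. The HEK293T libraries labelled PUS7KO had 236 to 280 CPM, so the rise in this line was not particular to the SNRPD2KO label. In HuCCT1 SNRPD2 ran from 260 to 319 CPM in the libraries labelled SNRPD2KO against 146 to 160 CPM in Ctrl. PUS7 ran from 13.7 to 18.1 CPM in HEK293T libraries labelled PUS7KO against 26 to 27 CPM in Ctrl. Every direction below is that of the labelled groups. In each labelled knockout of HEK293T 1 library stood apart from the others: SNRPD2KO replicate 3 (chi-square per degree of freedom of 11 and 12.9 against the others, which gave 3.5 between themselves, and 30% small noncoding RNA against 35.7%) and PUS7KO replicate 2 (11.9 and 12.4 against 4.22, and 28.2% against 33.5%). The summed level of 8 biliary epithelial markers was 11900 to 12800 CPM in HuCCT1 libraries labelled SNRPD2KO and 12200 to 12400 CPM in HuCCT1 Ctrl; in HEK293T it was 214 to 372 CPM over all 9 libraries. Of the 6 HEK293T markers, 5 stood above 1 CPM in each HEK293T group and PAX2 did not. The hepatocyte markers summed to at most 0.966 CPM, the endothelial ones to at most 1.78 CPM and the leukocyte ones to at most 3.65 CPM. Summed fibroblast markers moved with the labels, carried by COL1A1 and LUM. In HEK293T the sum was 9.46 to 12.7 CPM in SNRPD2KO, 11.6 to 13.2 CPM in PUS7KO and 6.32 to 6.82 CPM in Ctrl. In HuCCT1 it was 20.1 to 21.8 CPM in SNRPD2KO against 10.2 to 11.8 CPM in Ctrl. COL1A2 went the other way in HuCCT1 (0 to 0.178 CPM against 0.305 to 0.445 CPM) and had 0 CPM in HEK293T. DCN overlapped between the groups in both lines. The part of these markers in the results was not tested.

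In HEK293T, the arginine enzyme ASS1 was about 7 times as abundant in the libraries of either labelled knockout as in Ctrl. ASS1, argininosuccinate synthase, joins citrulline and aspartate in the step that limits arginine synthesis. It had 162, 159 and 147 CPM in the libraries labelled SNRPD2KO, 176, 158 and 180 CPM in those labelled PUS7KO, and 25.6, 24.2 and 16.4 CPM in Ctrl. Both labelled knockouts lay far above Ctrl and overlapped each other. The log2 fold change was 2.82 ± 0.13 (SE) for SNRPD2KO minus Ctrl, with a 95% interval of 2.55 to 3.09. For PUS7KO minus Ctrl it was 2.95 ± 0.13 (2.68 to 3.22). Of the 15882 genes tested, 21 had a larger log2 fold change in the first comparison and 20 in the second. ASL, argininosuccinate lyase, which releases arginine and fumarate in the next step, was far less abundant and moved less. It had 11.5, 11.2 and 11.1 CPM in the libraries labelled SNRPD2KO, 7.83, 9.18 and 8.33 CPM in those labelled PUS7KO, and 5.79, 4.11 and 4.09 CPM in Ctrl. The 3 groups did not overlap, with SNRPD2KO highest and Ctrl lowest. Its log2 fold change was 1.27 ± 0.17 (0.9 to 1.63) for SNRPD2KO minus Ctrl and 0.85 ± 0.18 (0.48 to 1.23) for PUS7KO minus Ctrl, resting on 36 to 130 counts per library.

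The proline enzymes were also higher in both labelled knockouts of HEK293T, PYCR1 by about 4 times and ALDH18A1 by under 2 times. ALDH18A1 encodes the mitochondrial synthase that turns glutamate into the precursor of pyrroline-5-carboxylate. It had 204, 207 and 196 CPM in the libraries labelled SNRPD2KO, 193, 174 and 208 CPM in those labelled PUS7KO, and 131, 111 and 125 CPM in Ctrl. Its lowest knockout library stood above its highest Ctrl library, yet its log2 fold changes were the smallest of the 8 genes, at 0.73 ± 0.09 (0.54 to 0.91) for SNRPD2KO and 0.65 ± 0.09 (0.46 to 0.83) for PUS7KO. PYCR1, the mitochondrial reductase that completes proline, had 210, 215 and 184 CPM in the libraries labelled SNRPD2KO, 174, 154 and 168 CPM in those labelled PUS7KO, and 49.7, 40.2 and 45.3 CPM in Ctrl. All 3 groups were apart here as well, in the order SNRPD2KO, PUS7KO, Ctrl. The log2 fold change of PYCR1 was 2.17 ± 0.10 (1.96 to 2.38) for SNRPD2KO and 1.87 ± 0.10 (1.67 to 2.08) for PUS7KO.

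Of the transsulfuration pair, CTH had tight replicates and CBS did not. CBS, cystathionine beta-synthase, condenses homocysteine with serine, and CTH, cystathionine gamma-lyase, cleaves the product to cysteine. CTH had 96.5, 92.1 and 88.1 CPM in the libraries labelled SNRPD2KO, 86.7, 87.7 and 82.8 CPM in those labelled PUS7KO, and 19, 20.9 and 16.8 CPM in Ctrl. The log2 fold change was 2.29 ± 0.09 (2.09 to 2.48) for SNRPD2KO and 2.18 ± 0.09 (1.98 to 2.38) for PUS7KO. CTH was thus more than 4 times as abundant in each labelled knockout as in Ctrl. CBS had 30.6, 52.6 and 23.1 CPM in the libraries labelled SNRPD2KO, 13.2, 40.1 and 32.6 CPM in those labelled PUS7KO, and 7.5, 12.4 and 12.3 CPM in Ctrl. The lowest PUS7KO library lay just above the highest Ctrl library. The CBS log2 fold change was 1.72 ± 0.35 (0.99 to 2.44) for SNRPD2KO and 1.42 ± 0.35 (0.69 to 2.15) for PUS7KO, and the coefficient of variation was 43.2% and 48.5% in the libraries labelled SNRPD2KO and PUS7KO, against 26.1% in Ctrl.

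GPT2 and PCK2, mitochondrial enzymes that connect amino acids with pyruvate and phosphoenolpyruvate, completed the set. GPT2 transfers the amino group of glutamate to pyruvate and so makes alanine. It had 36.6, 35.2 and 40.2 CPM in the libraries labelled SNRPD2KO, 36.4, 32.5 and 37 CPM in those labelled PUS7KO, and 18.8, 16.1 and 17.2 CPM in Ctrl. That is close to a doubling in either labelled knockout, with log2 fold changes of 1.11 ± 0.11 (0.88 to 1.33) and 1.02 ± 0.11 (0.8 to 1.25). PCK2, the mitochondrial phosphoenolpyruvate carboxykinase, was rare and the most variable of the 8. It had 16.5, 4.62 and 5.89 CPM in the libraries labelled SNRPD2KO, 4.49, 20 and 9.89 CPM in those labelled PUS7KO, and 1.18, 1.71 and 1.59 CPM in Ctrl, from 42 to 240 counts in knockout libraries and 11 to 15 in Ctrl. All 6 knockout libraries exceeded all 3 Ctrl libraries, although knockout libraries of the same label differed by more than 3 times. Its log2 fold changes of 2.58 ± 0.58 (1.35 to 3.8) for SNRPD2KO and 2.95 ± 0.57 (1.76 to 4.14) for PUS7KO carry the widest intervals of the set. Without SNRPD2KO replicate 1 the first was 1.84, and without PUS7KO replicate 2 the second was 2.27.

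**Figure D1:**
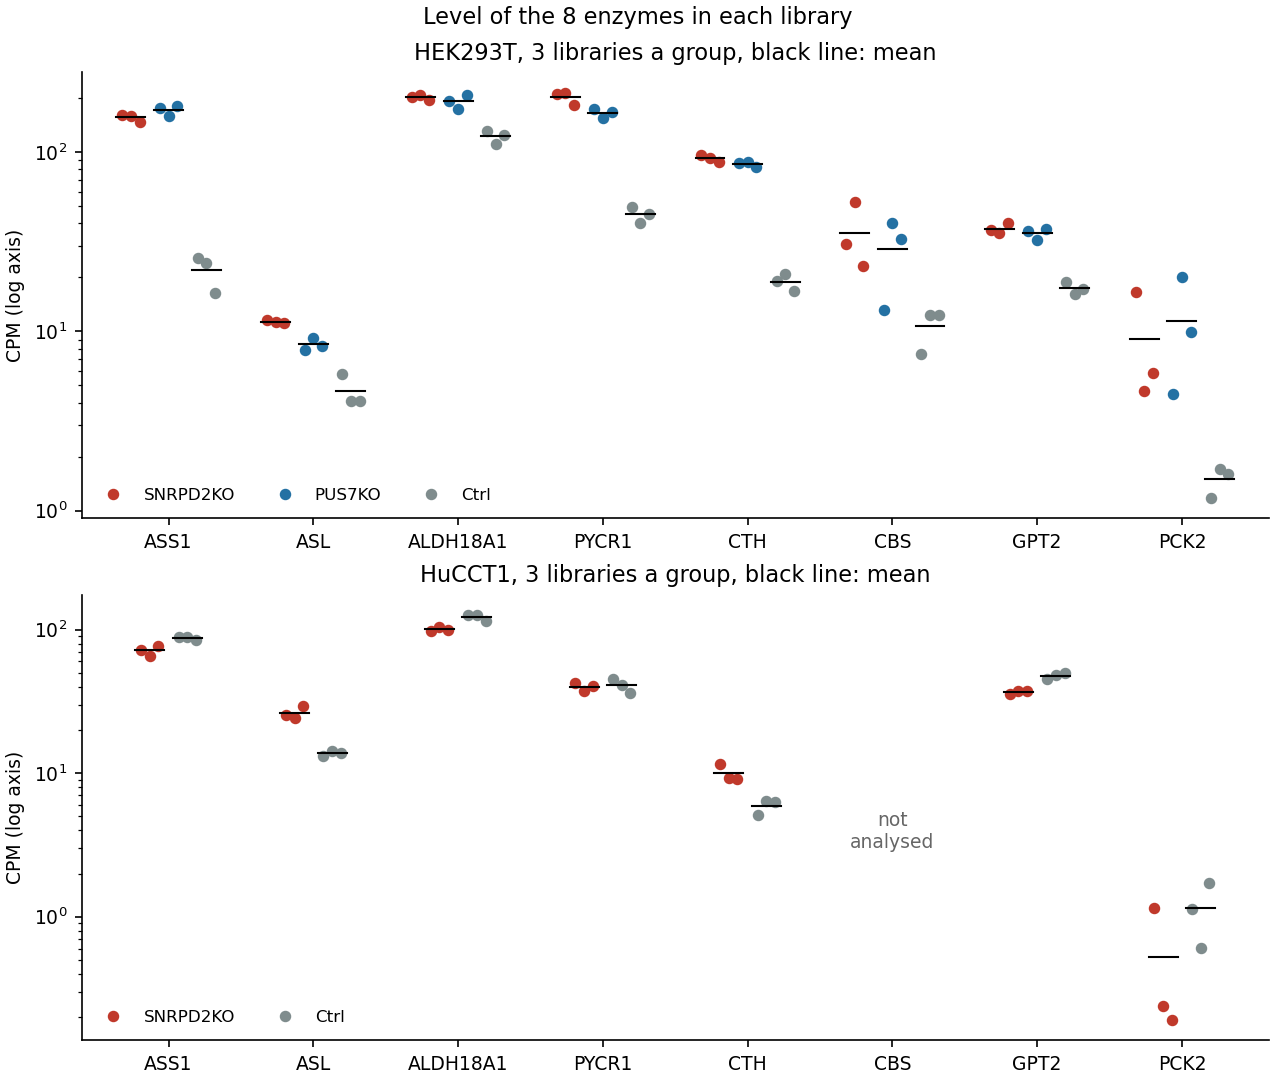
CPM of each gene in each library on a log axis, with the libraries labelled SNRPD2KO in red, PUS7KO in blue and Ctrl in grey; black lines are means of 3 libraries. In HEK293T both labelled knockouts lie above Ctrl for all 8 genes, while in HuCCT1 ASL and CTH lie above Ctrl and ASS1, ALDH18A1 and GPT2 below it.

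By the quasi-likelihood test of edgeR at an adjusted p under 0.05, 8 of 8 genes were higher in the HEK293T libraries labelled SNRPD2KO, where 26.9% of all genes tested were called higher, and in 8 of 8 the groups did not overlap, against 30.1% of all genes. For PUS7KO minus Ctrl 8 of 8 were higher, against 25.6% of all genes tested, and 8 of 8 did not overlap, against 29.5%. Since these contrasts served to choose the genes, nothing is read from the counts. The median log2 fold change of the 8 was 1.94 for SNRPD2KO and 1.65 for PUS7KO, beside 0.02 and 0.01 over all genes. The 2 comparisons share their 3 Ctrl libraries. Among HEK293T genes the fold for SNRPD2KO went up with GC content (Spearman 0.36 across the 97% of genes with a known GC content, which are not independent replicates), while the 8 genes range from 43.3% GC in CTH to 61.8% in PYCR1. With that trend removed per library, the SNRPD2KO log2 fold changes were 2.62 for ASS1, 1.88 for PYCR1, 2.45 for CTH, 2.29 for PCK2, 1.5 for CBS, 1.03 for ASL, 0.95 for GPT2 and 0.69 for ALDH18A1, and all 8 calls were kept.

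**Figure D2:**
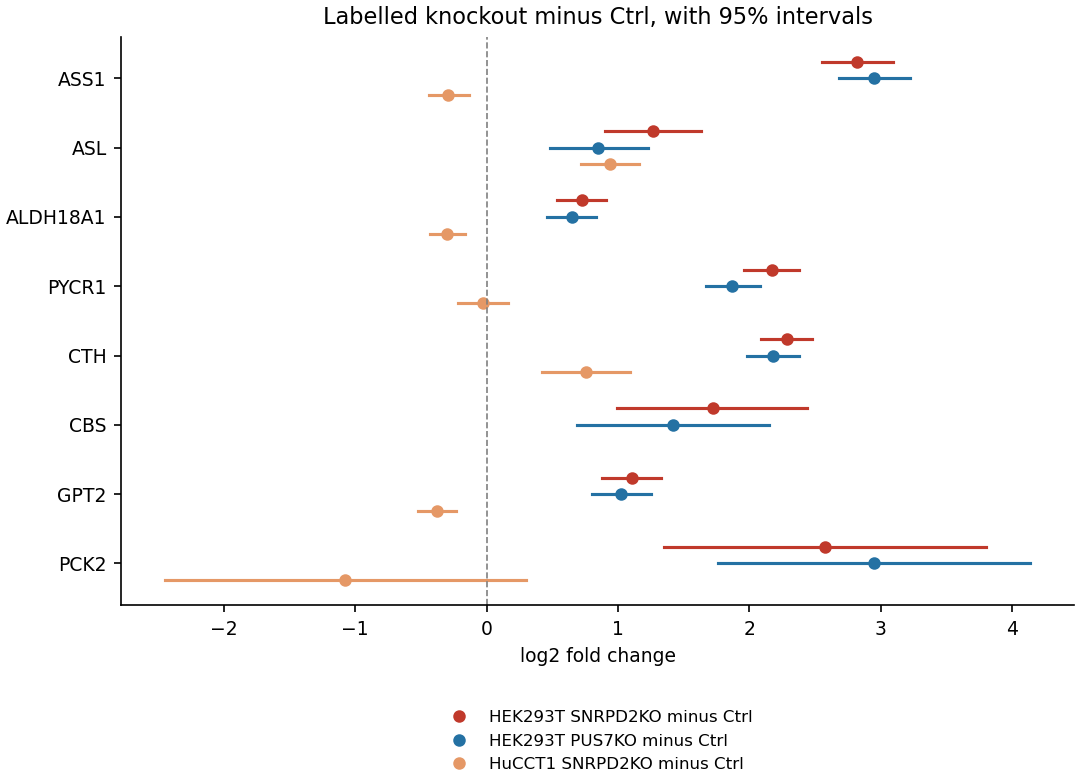
Log2 fold change of each gene between a labelled knockout and Ctrl, with 95% intervals from the fitted model. Red and blue intervals (HEK293T SNRPD2KO and PUS7KO) lie right of 0 for all 8 genes, and the orange ones (HuCCT1 SNRPD2KO) lie on either side of 0.

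The comparison of the 2 labelled knockouts with each other was not the contrast that chose the genes. It rests on the same knockout libraries, though, so its p-values and intervals are not independent of that choice. With all libraries in, edgeR called none of the genes. The libraries that stood apart, SNRPD2KO replicate 3 and PUS7KO replicate 2, turn the PYCR1 call and the PCK2 sign below. Of the 8 genes, 0 passed the threshold in edgeR for SNRPD2KO minus PUS7KO, where 4.77% of all genes were called; 2 had an unadjusted p under 0.05, and DESeq2 called 1, PYCR1. For PYCR1, at 203 ± 16.6 CPM in the libraries labelled SNRPD2KO and 165 ± 10.1 CPM in those labelled PUS7KO (SD, n = 3 each), the log2 fold change was 0.30 with a 95% interval of 0.1 to 0.49 (edgeR adjusted p = 0.069, DESeq2 adjusted p = 0.029). Without SNRPD2KO replicate 3 edgeR called it too (log2 fold change 0.37, adjusted p = 0.017; the alternatives ranged from 0.017 to 0.38). ASL was next, at 11.3 ± 0.20 CPM in SNRPD2KO and 8.45 ± 0.68 CPM in PUS7KO, with 0.41 (0.07 to 0.75, edgeR adjusted p = 0.14). ASL, PYCR1 and CTH had every library labelled SNRPD2KO above every library labelled PUS7KO, 3 of 8 genes, against 12.6% of all genes. The intervals of the other genes spanned 0: ASS1 -0.13 (-0.37 to 0.1), ALDH18A1 0.08 (-0.1 to 0.26), CTH 0.10 (-0.07 to 0.28) and GPT2 0.08 (-0.13 to 0.29). Those 4 intervals hold no difference beyond 0.37 in either direction. CBS at 0.29 (-0.36 to 0.95) and PCK2 at -0.37 (-1.29 to 0.54) leave room for larger ones, and both change sign without a single library: CBS to -0.10 without SNRPD2KO replicate 2 and -0.04 without PUS7KO replicate 1, PCK2 to 0.33 without PUS7KO replicate 2.

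In HuCCT1, the libraries labelled SNRPD2KO did not show the HEK293T pattern: ASL and CTH were higher than in Ctrl, ASS1, ALDH18A1 and GPT2 somewhat lower, and PYCR1 overlapping. ASS1 had 72.5, 65.2 and 77.2 CPM in the libraries labelled SNRPD2KO and 88.8, 89.1 and 84.2 CPM in Ctrl. The groups are apart, with a log2 fold change of -0.29 ± 0.07 (-0.44 to -0.13). ASL had 25.4, 24.3 and 29.4 CPM in SNRPD2KO and 13.2, 14.3 and 13.8 CPM in Ctrl, a log2 fold change of 0.94 ± 0.10 (0.72 to 1.16). The 2 arginine enzymes therefore moved in opposite directions in this line. ALDH18A1 had 97.2, 105 and 99.2 CPM in SNRPD2KO and 127, 127 and 115 CPM in Ctrl (-0.30 ± 0.06, interval -0.43 to -0.16). PYCR1 had 42.4, 37.5 and 40.3 CPM in SNRPD2KO and 45.2, 41.1 and 36.4 CPM in Ctrl. These overlap, and the interval of its log2 fold change (-0.03, from -0.22 to 0.16) excludes a change of the size seen in HEK293T.

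CTH, the cysteine-forming enzyme, was higher in HuCCT1 too, though at low levels: 11.6, 9.32 and 9.16 CPM in the libraries labelled SNRPD2KO against 5.15, 6.4 and 6.28 CPM in Ctrl, a log2 fold change of 0.76 ± 0.15 (0.42 to 1.09). GPT2 had 35.4, 37.6 and 37.1 CPM in SNRPD2KO and 45, 48.4 and 49.6 CPM in Ctrl, so the alanine enzyme was lower without overlap (-0.38 ± 0.07, interval -0.52 to -0.23). PCK2 was close to the limit of detection, with 20, 4 and 3 counts in SNRPD2KO and 18, 10 and 23 counts in Ctrl. These counts equal 1.15, 0.237 and 0.191 CPM in SNRPD2KO and 1.14, 0.609 and 1.72 CPM in Ctrl, where a floor of 3 counts per library equals 0.172 to 0.224 CPM. Its log2 fold change of -1.08 ± 0.62 (-2.45 to 0.3) was not called, and became -2.36 and called without SNRPD2KO replicate 1, the library that overlaps Ctrl. In all, 2 of 7 genes were called higher, against 28.8% of all genes tested, and 3 of 7 lower, against 28.4%; the same 2 and 3 did not overlap between groups, against 31.9% and 31.6%. The share called higher is near the background, and the median of the 7 was -0.29 beside 0 over all 15007 genes.

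Setting the lines against each other, the SNRPD2KO response was smaller in HuCCT1 than in HEK293T for 6 of the 7 genes by the fitted interaction, where 20.9% of 17617 genes were called lower and 19.8% higher. The interaction contains the contrast that chose the genes, so it is a description. The difference of log2 fold changes, HuCCT1 minus HEK293T, was -3.15 (-3.49 to -2.82) for ASS1, -2.25 (-2.53 to -1.96) for PYCR1 and -1.57 (-1.93 to -1.22) for CTH. For GPT2 it was -1.53 (-1.79 to -1.27), for ALDH18A1 -1.07 (-1.29 to -0.85) and for PCK2 -3.69 (-5.47 to -1.91). CTH was higher than Ctrl in both lines and differed in size, whereas ASS1, ALDH18A1 and GPT2 had opposite signs. ASL was the exception: its difference was -0.37 (-0.79 to 0.05), not called, although it was called without HEK293T Ctrl replicate 1 (-0.57). The lines share no library, but they differ in medium, in total counts and in the share of small noncoding RNA, and the part of these in the difference cannot be told apart from that of the line.

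**Figure D3:**
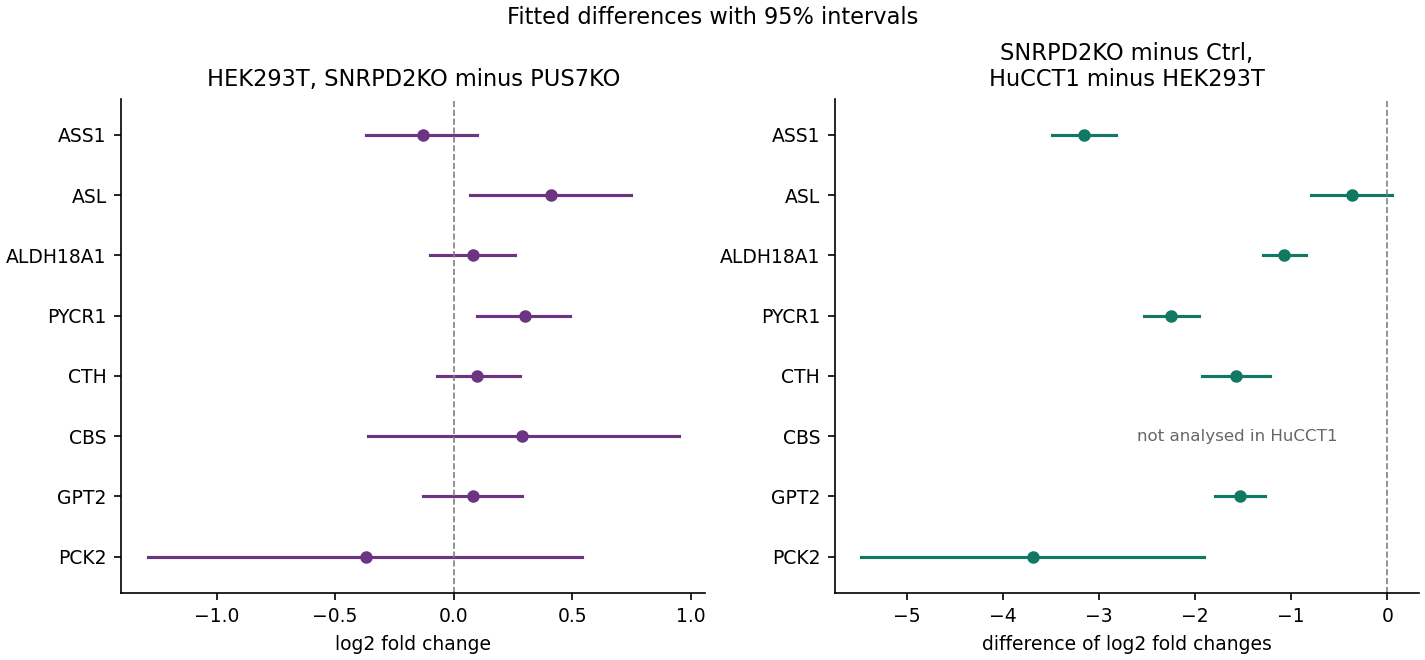
Fitted differences with 95% intervals: HEK293T SNRPD2KO minus PUS7KO on the left, and the SNRPD2KO minus Ctrl response of HuCCT1 minus that of HEK293T on the right. On the left the intervals of ASL and PYCR1 lie right of 0; on the right all but that of ASL lie left of 0, and CBS was not analysed in HuCCT1.

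Levels can be compared between genes per kilobase of exon, using exon lengths of GENCODE release 29, which may not be the annotation used for counting. In HEK293T Ctrl, ALDH18A1 led with 32.5 ± 2.74 CPM per kb, then PYCR1 with 15.6 ± 1.66, CTH with 7.83 ± 0.84 and ASS1 with 7.23 ± 1.63 (SD, n = 3). CTH and ASS1 did not differ beyond their spread, nor did CBS (1.58 ± 0.41) and ASL (1.46 ± 0.31). PCK2 was last at 0.357 ± 0.067 CPM per kb. In the libraries labelled SNRPD2KO the order began with PYCR1 at 70.4 ± 5.74 CPM per kb, then ALDH18A1 at 53.8 ± 1.48 and ASS1 at 51.2 ± 2.66, and the lowest ALDH18A1 library (52.1) lay within the range of ASS1 (48.2 to 53.2). In those labelled PUS7KO, PYCR1 (57.3 ± 3.49), ASS1 (56.1 ± 3.90) and ALDH18A1 (50.9 ± 4.6) formed a group of similar level. In HuCCT1, ALDH18A1 and ASS1 led in either group, at 26.6 ± 1.01 and 23.5 ± 1.98 CPM per kb in SNRPD2KO and 32.8 ± 1.89 and 28.6 ± 0.91 in Ctrl. Set side by side, and with the lines normalized separately, ASS1 in HuCCT1 Ctrl (87.3 ± 2.76 CPM) lay between its level in HEK293T libraries labelled SNRPD2KO (156 ± 8.13 CPM) and in HEK293T Ctrl (22.1 ± 4.99 CPM).

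As a group, the median of the genes' log2 CPM relative to the Ctrl mean was 1.86, 1.81 and 1.44 in the HEK293T libraries labelled SNRPD2KO, 1.19, 1.83 and 1.74 in those labelled PUS7KO, and 0.11, 0.02 and 0 in Ctrl. In HuCCT1 it was 0.05, -0.24 and -0.18 in SNRPD2KO and 0.02, 0.03 and 0.01 in Ctrl. PYCR1 stayed nearest to this median, with a root mean square distance of 0.302 over the 15 libraries, and ASS1 farthest, at 0.818. In all, 8730 genes had at least 5 CPM on average in each line, a number that includes members. The nearest to the median outside the members were LRRC8D (0.206), PLD3 (0.211), FKBP10 (0.222), HES4 (0.226) and ASB13 (0.246). LRRC8D is a subunit of the volume-regulated anion channel and PLD3 a lysosomal nuclease. FKBP10 is a prolyl isomerase of the endoplasmic reticulum, HES4 a helix-loop-helix repressor and ASB13 an adaptor of a ubiquitin ligase. Their profile over 15 libraries was the measure of likeness, and the libraries share groups and depth.

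The other genes of these pathways were listed by their role, but with earlier results of these data known. Their counts and p-values are therefore given as a description. Over 4 lists of 62 genes, 48 were tested in HEK293T: 25 were higher and 8 lower for SNRPD2KO minus Ctrl, and 20 higher and 9 lower for PUS7KO minus Ctrl. Among all genes tested, 26.9% were called higher and 26.4% lower for SNRPD2KO, and 25.6% higher and 23.8% lower for PUS7KO. Their median log2 fold changes were 0.48 and 0.27. In the direct comparison, 1 of 48 was called, MTR, methionine synthase, with a log2 fold change of -0.34 (edgeR adjusted p = 0.032, and 0.0071 to 0.18 over the alternatives). The call was lost without SNRPD2KO replicate 1 or 2 and without PUS7KO replicate 1 or 2. In HuCCT1, 11 of 42 were higher and 11 lower, shares near those of all genes (28.8% and 28.4%), with a median of 0.08. The counts per list below stand against the same shares. These p-values and those below come from edgeR with adjustment over all genes tested.

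Among the 11 other arginine and urea cycle genes tested in HEK293T, 6 rose and 3 fell for SNRPD2KO, and 5 rose and 3 fell for PUS7KO. ARG2, the mitochondrial arginase that breaks arginine down, rose by a log2 fold change of 1.00 in both (adjusted p = 4.4e-06 for SNRPD2KO and 5.8e-06 for PUS7KO). GAMT, which makes creatine from guanidinoacetate, rose by 1.23 (6.3e-08) and 1.03 (adjusted p = 5.6e-07). SLC25A15, the mitochondrial ornithine carrier, rose by 0.73 for SNRPD2KO (1.6e-05) and 0.79 for PUS7KO (8.8e-06), and NOS2, a nitric oxide synthase, by 0.79 (0.0018) and 0.77 (adjusted p = 0.0025). OAT, ornithine aminotransferase, which links ornithine to the proline precursor, fell to 89.5 ± 7.53 CPM in SNRPD2KO and 76.8 ± 0.97 CPM in PUS7KO, against 151 ± 3.39 CPM in Ctrl (log2 fold changes -0.76, adjusted p = 9.6e-07, and -0.98, adjusted p = 9.8e-08). AZIN1, an inhibitor of the antizyme that degrades ornithine decarboxylase, fell by 0.68 and 0.61 on the log2 scale (4e-06 and 1.4e-05). In HuCCT1 0 of 10 rose and 3 fell: ODC1, ornithine decarboxylase, by 1.14 (2.4e-08), AZIN1 by 0.67 (6.5e-06) and SLC25A15 by 0.44 (0.011).

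Of the other proline genes, 3 of 4 tested rose for SNRPD2KO, 2 of 4 for PUS7KO and 3 of 3 in HuCCT1, and 0 fell in any of these. ALDH4A1, which oxidises the proline breakdown product to glutamate, rose by 1.4 for SNRPD2KO (0.00017), 0.97 for PUS7KO (0.0048) and 1.13 in HuCCT1 (adjusted p = 8.3e-06), and PEPD, a peptidase that frees proline from dipeptides, rose by 0.36 for SNRPD2KO in HEK293T (0.013, against 0.17 with the GC trend removed and 0.0015 to 0.17 over the alternatives) and 0.84 in HuCCT1 (4.9e-05). PYCR3, the cytosolic reductase, had 77, 11 and 17 counts in HEK293T SNRPD2KO, 6, 5 and 15 in PUS7KO and 36, 9 and 7 in Ctrl. Replicate 1 was its highest library in SNRPD2KO and in Ctrl, the log2 fold change of 0.90 (adjusted p = 0.27) became -0.49 without SNRPD2KO replicate 1, and no direction is drawn.

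Of the methionine, cysteine and glutathione genes in HEK293T, 8 of 18 rose and 3 fell for SNRPD2KO, 6 rose and 3 fell for PUS7KO, and in HuCCT1 5 of 16 rose and 4 fell. GSS, glutathione synthetase, rose by log2 fold changes of 1.45 and 1.31 (adjusted p = 3.5e-09 and 1.3e-08), and by 0.62 in HuCCT1 (4.8e-06). The subunits of the enzyme before it, glutamate-cysteine ligase, had lower values in HEK293T. GCLM, the modifier subunit, had -0.67 for SNRPD2KO (0.0016, against 0.42 with the GC trend removed, the highest of its alternatives, which began at 0.00041) and -0.66 for PUS7KO (adjusted p = 0.002). GCLC, the catalytic subunit, had -0.29 (adjusted p = 0.035, and 0.017 to 0.26 over the alternatives) and -0.36 (0.011), and fell by 0.61 in HuCCT1 (0.00014). The GCLC call for SNRPD2KO was lost without SNRPD2KO replicate 2 or 3 and without Ctrl replicate 2 or 3. MPST, which takes sulfur from a cysteine derivative, rose by 1.03 for SNRPD2KO (2.7e-07) and 0.82 for PUS7KO (4e-06). AHCYL1, a homologue of the enzyme that cleaves S-adenosylhomocysteine, rose by 0.95 and 0.93, and by 1.23 in HuCCT1 (2.6e-07, 4.4e-07 and 2.8e-08). MTR rose by 0.54 for SNRPD2KO (6.2e-05), by 0.89 for PUS7KO (5.3e-07) and by 1.66 in HuCCT1 (2.8e-08). MAT2B, a regulator of methionine adenosyltransferase, had -0.34 for SNRPD2KO (0.003), which reversed to 0.25 with the GC trend removed, and -0.55 in HuCCT1 (adjusted p = 1.4e-05). In HuCCT1 SUOX, sulfite oxidase, rose by 1.03 (1.8e-05) and MTRR, which reactivates methionine synthase, fell by 0.56 (5.3e-05).

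Among alanine, glutamate, aspartate and pyruvate genes, 8 of 15 rose and 2 fell for SNRPD2KO, 7 rose and 3 fell for PUS7KO, and 3 of 13 rose and 4 fell in HuCCT1. GOT1, the cytosolic aspartate transaminase, rose by 0.98 and 0.83 (adjusted p = 1.2e-07 and 9.2e-07) and by 0.37 in HuCCT1 (0.00027). GLUL, glutamine synthetase, fell by 0.31 for PUS7KO (0.0033, against 0.072 with no low-count filter and 0.00047 to 0.072 over the alternatives) and by 1.12 in HuCCT1 (adjusted p = 3.6e-06). The malate dehydrogenases MDH1 (cytosolic) and MDH2 (mitochondrial) rose by 0.59 and 0.53 for SNRPD2KO (1.2e-05 and 5.8e-05), and by 0.56 and 0.36 for PUS7KO (2.3e-05 and 0.0017). In HuCCT1 MDH1 rose by 0.73 (4.8e-05) and MDH2 fell by 0.35 (0.00011). ME1, malic enzyme, fell by 0.72 for SNRPD2KO (9.7e-05) and 0.41 for PUS7KO (0.0085, against -0.25 and adjusted p = 0.056 with the GC trend removed). GOT2, the mitochondrial aspartate transaminase, had -0.16 in HuCCT1 (adjusted p = 0.022, and 0.012 to 0.14 over the alternatives), a call lost without SNRPD2KO replicate 2 and without any of the 3 Ctrl replicates. PC, pyruvate carboxylase, which makes the oxaloacetate that PCK2 consumes, rose by 1.05 in HuCCT1 (2.1e-06). The cytosolic counterparts of GPT2 and PCK2 were near the detection limit: GPT had 15, 19 and 25 counts in HEK293T SNRPD2KO, 21, 16 and 10 in PUS7KO and 12, 10 and 11 in Ctrl (log2 fold changes 0.66 and 0.25, adjusted p = 0.12 and 0.58). PCK1 had 19, 11 and 26 counts in SNRPD2KO, 35, 31 and 43 in PUS7KO and 16, 15 and 4 in Ctrl (0.50, adjusted p = 0.34, and 1.4, adjusted p = 0.0071). ASNS, whose promoter is printed above, had 2.79, 3.08 and 2.73 CPM in HEK293T SNRPD2KO, 3.63, 3.51 and 3.64 CPM in PUS7KO and 1.72, 1.03 and 1.36 CPM in Ctrl (1.05, adjusted p = 0.0051, and 1.38, adjusted p = 0.00059). In HuCCT1 it fell to 1.09, 0.297 and 0.509 CPM in SNRPD2KO, against 3.56, 3.35 and 3.96 CPM in Ctrl (-2.49, adjusted p = 0.00014). These levels are uncertain, since nearly the whole of ASNS lies within ENSG00000284707, a longer gene of the same strand.

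**Figure D4:**
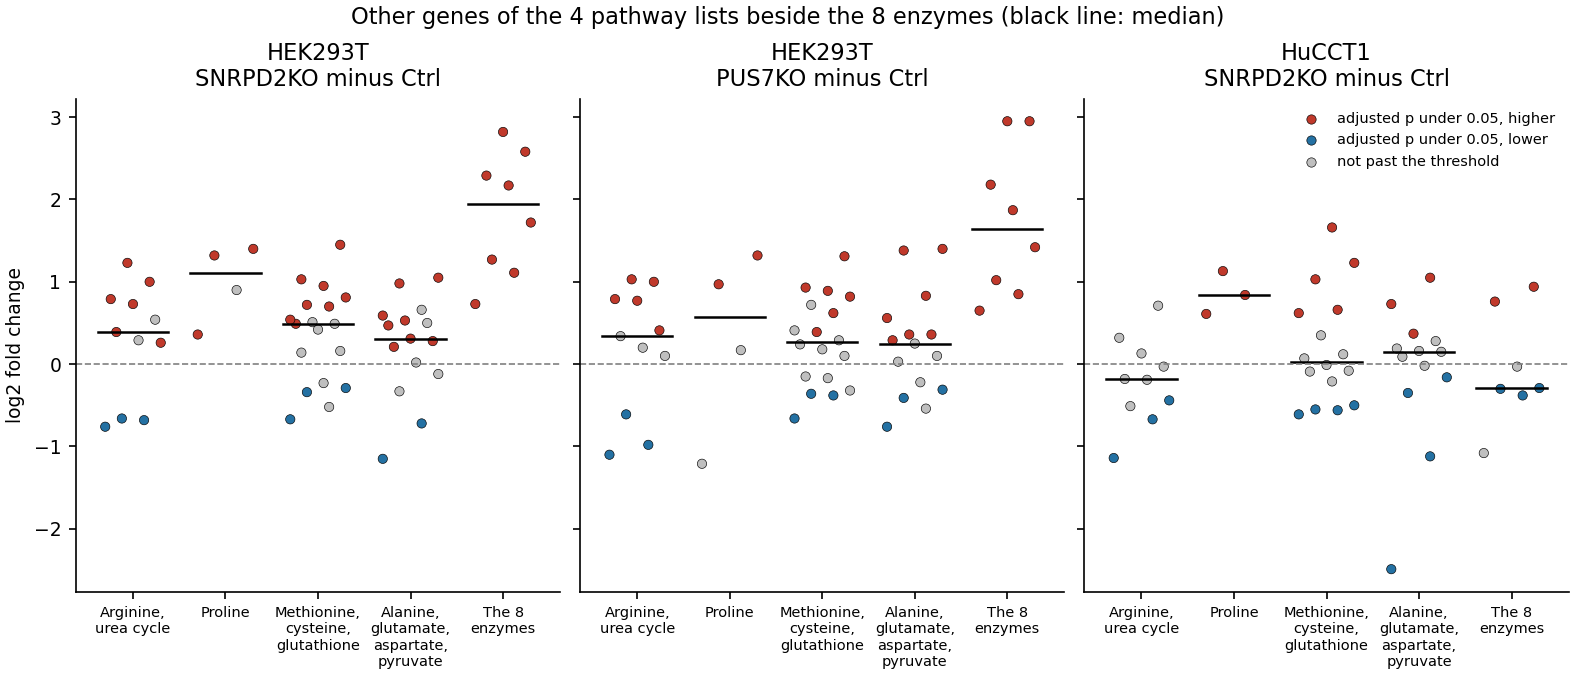
Log2 fold changes of the tested genes in 4 pathway lists, without the 8 enzymes, beside those of the 8 enzymes (7 in HuCCT1), for each labelled knockout against Ctrl; each point is a gene and black lines are medians. Red points were higher and blue points lower at an adjusted p under 0.05. In HEK293T the medians of the 8 enzymes, 1.94 and 1.65, lie above those of the 4 lists. The 8 enzymes were chosen on these fold changes, so nothing is read from that gap.

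ASS1 has many processed pseudogenes. Over 14 of them in HEK293T and 11 in HuCCT1 the counts summed to 5 to 35 and 7 to 60 per library, against 144 to 1888 and 1099 to 1462 counts of ASS1 itself. ASS1P12 held 7, 3 and 9 counts in HEK293T SNRPD2KO, 1, 11 and 4 in PUS7KO and 26, 26 and 31 in Ctrl, and 3, 3 and 4 in HuCCT1 SNRPD2KO against 47, 49 and 28 in Ctrl. It was thus lower in every labelled knockout, with log2 fold changes of -2.28 (adjusted p = 0.00045), -2.61 (0.00021) and -3.70 (6.1e-06), where ASS1 was higher in HEK293T. ASS1P12 lies on the plus strand within the span of APTX (chromosome 9, 32886601 to 33025130, minus strand), and since the strand setting of the counting is not given in the sources used here, its reads cannot be told apart from those of APTX.

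ATF4 and other stress regulators moved in the same labelled groups. ATF4 RNA had 692 ± 53.5 CPM in HEK293T libraries labelled SNRPD2KO, 649 ± 22.9 CPM in those labelled PUS7KO and 471 ± 33.2 CPM in Ctrl (log2 fold changes 0.55, adjusted p = 3.3e-05, and 0.46, adjusted p = 0.00023). In HuCCT1 it fell to 439 ± 15.9 CPM in SNRPD2KO, against 582 ± 5.09 CPM in Ctrl (-0.41, adjusted p = 2.9e-05). DDIT3, which encodes the stress factor CHOP, changed by 0.37 (0.0082), 0.54 (0.00047) and, in HuCCT1, -1.0 (4.1e-06). Of 13 such regulators, 7 rose and 1 fell for SNRPD2KO, 8 rose and 1 fell for PUS7KO, and 1 rose and 9 fell in HuCCT1. TRIB3, a pseudokinase induced by ATF4 and CHOP, rose by 2.50 in either labelled knockout of HEK293T (9.3e-10 and 9.6e-10) and fell by 0.47 in HuCCT1 (3.5e-05). MYC rose by 1.94 and 1.81 (9.3e-10 and 1.7e-09) and fell by 0.92 in HuCCT1 (adjusted p = 4.8e-07). CEBPB rose by 1.67 and 1.35 in HEK293T (2.2e-08 and 3e-07). In HuCCT1 CEBPB had 60.1 ± 1.78 CPM in SNRPD2KO, against 107 ± 4.27 CPM in Ctrl. In the direct comparison ATF3 and CEBPG were lower in SNRPD2KO than in PUS7KO, with log2 fold changes of -0.58 (0.0057) and -0.55 (0.024; 1.6e-05 to 0.14 over the alternatives). CEBPG was not called without SNRPD2KO replicate 1 or 2 or PUS7KO replicate 2. NFE2L2 had -0.33 for SNRPD2KO (adjusted p = 0.016, and 0.0083 to 0.12 over the alternatives), a call lost without SNRPD2KO replicate 2 or Ctrl replicate 3. EIF2AK1 had -0.23 for PUS7KO (adjusted p = 0.023, and 0.0081 to 0.35 over the alternatives), a call lost without PUS7KO replicate 1 or 3 or Ctrl replicate 2. EIF2AK4, the kinase that senses uncharged transfer RNA, rose by 0.47 in HuCCT1 (5.3e-05). In HEK293T EIF2AK4 had 43.2 ± 4.59 CPM in SNRPD2KO and 42.7 ± 6.16 CPM in PUS7KO, against 30.5 ± 2.41 CPM in Ctrl. The part of these regulators in the levels of the 8 enzymes was not tested.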

How the data were processed

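Gene counts were deposited by the authors as 1 table of raw whole-number counts per line, without normalization. Per the submitters' processing notes, cutadapt 4.2, HISAT2 2.2.1 and RSEM were used with build hg38; their roles, the annotation release and the strand setting are not given in the sources used here. Per the labels' protocols, libraries came from a stranded total RNA kit with ribosomal RNA depletion. Groups were taken from sample titles. Separate fits per line used edgeR 4.0.16 under R 4.3.3 (TMM factors, default low-count filter with minimum count 10 and minimum total 15, quasi-likelihood F test, two-sided, Benjamini-Hochberg adjustment over all genes tested, threshold 0.05). The 9 HEK293T libraries shared 1 fit with 15882 genes, and the 6 HuCCT1 libraries another with 15007 genes. The interaction used the 12 SNRPD2KO and Ctrl libraries and 17617 genes. All 8 genes passed the filter in HEK293T, and all 7 of those counted in HuCCT1 passed it there. The coefficient of variation between libraries of a group, beyond counting noise, came to 10.8% for HEK293T and 10.1% for HuCCT1. Pairs of replicates differed by more than sampling noise (chi-square per degree of freedom 3.5 to 14.5). The floor of 3 counts allows for counting error only, and the reads carry no molecular identifiers. The 95% intervals of fold changes come from the fitted model, which includes the spread between libraries.

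The members and the pathway lists were chosen with earlier results of these data known. Some genes of these lists enter counts and plots but are not reported here by name. Named beside the members were their paralogs and copies, the target genes, ATF4, DDIT3, ASNS, and per list and direction up to 3 called genes with the largest fold change and at least 5 CPM in the higher group. Likeness was ranked by the root mean square difference from the members' median log2 CPM (pseudocount 0.5), and 5 genes were named. Alternatives were RLE and upper quartile factors, protein-coding totals, other filters, limma 3.58.1 voom, DESeq2 1.42.0, an adjusted p under 0.01, a replicate block, a GC trend removed per library, the 2 groups alone and each library left out. The pipeline was tested on simulated counts.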

Additional observations from a re-analysis of the deposited data

Results flagged for a closer look

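By the interaction test of edgeR at an adjusted p under 0.05, the change between SNRPD2KO and Ctrl differed between lines for 30 named genes. Some of them were named because this same test called them, so nothing is read from the count. Among all 17617 genes tested, 20.9% were called lower and 19.8% higher. The values are differences of log2 fold changes, HuCCT1 minus HEK293T. Of the enzymes themselves, these were ASS1 (-3.15), ALDH18A1 (-1.07), PYCR1 (-2.25), CTH (-1.57), GPT2 (-1.53) and PCK2 (-3.69), which were chosen with results of these libraries known.

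Of the other arginine and proline genes, ARG2 (-0.73), SLC25A15 (-1.21) and ODC1 (-1.45) had a lower response in HuCCT1, and OAT (0.53) and PEPD (0.44) a higher one. In the methionine, cysteine and glutathione list AHCYL2 (-0.78), GSS (-0.88) and MPST (-0.95) were lower, and MTR (1.08) and GCLM (0.53) higher. In the alanine, glutamate, aspartate and pyruvate list ASNS (-3.58), GLUL (-1.04), GOT1 (-0.65) and MDH2 (-0.93) were lower, and ME1 (0.96) and PC (0.53) higher. Of the stress regulators, ATF4 (-1.01), CEBPB (-2.54), DDIT3 (-1.41), MYC (-2.91) and TRIB3 (-3.02) were lower, and EIF2AK2 (0.57) and NFE2L2 (0.35) higher. ASS1P12 (-1.45) passed narrowly (adjusted p = 0.049, and 0.023 to 0.14 over the alternatives). PC (0.046, and 0.0055 to 0.15) and NFE2L2 (0.04, and 0.015 to 0.23) also passed narrowly: these 3 calls were lost with DESeq2, with no low-count filter and with most of the single libraries left out. PEPD and GCLM each lost the call with no filter and without several single libraries, and AHCYL2 without HuCCT1 Ctrl replicate 1 (-0.54, adjusted p = 0.051). With the GC trend removed, OAT gave 0.23 (adjusted p = 0.13), EIF2AK2 0.09 (0.66), GCLM -0.08 (0.79), NFE2L2 0.32 (0.061) and ASS1P12 -1.31 (0.079), and none of these 5 passed. Over all alternatives the adjusted p ranged from 0.00017 to 0.13 for OAT, 0.00044 to 0.66 for EIF2AK2 and 0.014 to 0.79 for GCLM. Medium and library composition cannot be told apart from the line.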

How the results depend on the processing

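The count of members called stayed within 1.5 times of its main value under 87 of 89 alternatives, and that of other pathway genes under 75 of 89. The exceptions all lay in SNRPD2KO minus PUS7KO. There 0 members were called, and 1 by DESeq2, with 0 to 1 over the libraries left out. Of other pathway genes 1 was called there; upper quartile factors, protein-coding totals, a minimum count of 50, DESeq2 and the GC trend removed gave 2 each, no filter gave 3, an adjusted p under 0.01 and the 2 groups alone gave 0, and leaving out libraries gave 0 to 5 (5 without SNRPD2KO replicate 3). Same-numbered replicates did not deviate together (correlations of -0.112 to 0.047 in HEK293T and -0.042 to -0.006 in HuCCT1). Differently numbered ones gave -0.105 to 0.163 and -0.028 to 0.044, highest for SNRPD2KO replicate 3 with PUS7KO replicate 2 in HEK293T. No pairing by number was seen, but with 3 libraries a group these values cannot exclude a pairing by design. With the replicate number as a block 8, 8, 0 and 5 members were called in the 4 comparisons within lines, as without it. In SNRPD2KO minus PUS7KO the block gave 0 in place of 1 other pathway gene.

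Of the single-gene results, 2786 kept direction and side of the threshold, 111 lost a call, 15 gained one and 14 changed sign. For SNRPD2KO minus Ctrl, MAT2B gave 0.25 with the GC trend removed and PYCR3 -0.49 to 1.95 without single libraries; for PUS7KO minus Ctrl, GPT gave -0.02 to 0.45. For SNRPD2KO minus PUS7KO, CBS gave -0.10 to 0.63 (-0.04 without PUS7KO replicate 1), PCK2 -1.12 to 0.33 and ASS1P12 -0.13 to 1.29 with single libraries left out and ATF4 -0.01 with the GC trend removed. In HuCCT1, PYCR1 gave -0.11 to 0.04 (0.03 without SNRPD2KO replicate 2) and GPT -0.18 to 0.68 (-0.07 without SNRPD2KO replicate 3) with single libraries left out. In the interaction, GCLM gave -0.08 with the GC trend removed and PYCR3 -2.26 to 0.20 without single libraries. The causes were not tested. Summing CBS with CBSL was not run, and a minimum count of 50 left no HuCCT1 value for PCK2. With 3 libraries a group, depth limits PCK2, PYCR3, GPT, PCK1, ASNS and ASS1P12, which rest on few counts, most.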
